A study of Mus musculus with 3 samples.

Results

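Ly6C-low patrolling monocytes were taken from 3 single-cell RNA-seq libraries of mouse pancreas as barcodes with transcripts of the cell type, and numbered 134 of the 14302 barcodes kept. A barcode stands for 1 droplet, and a UMI, a unique molecular identifier, for 1 captured transcript. Barcodes with at least 1000 UMIs and at most 30% of them from mitochondrial genes were kept. A member had at least 1 UMI of 2 or more of the 4 markers Ear2, Ace, Treml4 and Eno3, at least 1 UMI of Csf1r and fewer than 2 UMIs of Ly6c2. Barcodes with any UMI of Arg1, Cd79a, Cd3d or Cd3e, or with 5 or more UMIs of Ccl5, Cxcl9 and Nos2 together, were left out. The members were thus selected on measured UMIs of these genes, whose levels are a description and no finding. Csf1r encodes the receptor of the growth factor that maintains monocytes and macrophages, and Ly6c2 the surface protein that classical monocytes carry.

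The mice were young adult C57BL/6 animals of both sexes without any engineered allele. One library came from mice given PBS, and the others from mice that received WGP, a particulate beta-glucan from yeast, as a single intraperitoneal dose 3 or 7 days before the pancreas was taken. In every group the pancreas was digested and live cells carrying CD45, the common leukocyte surface protein, were sorted and loaded on the 10x Genomics 3' v3.1 chemistry. Each group was 1 library, the number of mice behind a library is not given in the labels, and no test between groups was possible. The library intervals below are exact 95% intervals, Poisson for CPM (UMIs of a gene per 1000000 UMIs of the summed cells) and binomial for shares. They cover counting error only.

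Patrolling monocytes are the Ly6C-low form of circulating monocyte, which crawl along the inside of small vessels, clear debris and immune complexes, and in mice form mostly from Ly6C-high monocytes. Their formation and survival need the nuclear receptor Nr4a1 and the transcription factor Cebpb. They carry little of the chemokine receptor Ccr2 and much of the fractalkine receptor Cx3cr1, of the integrin LFA-1, whose alpha chain is Itgal, and of the sialoglycoprotein CD43, encoded by Spn. In a digested tissue such cells can sit in the vessels or outside them, which the sort did not separate.

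The promoters of 3 genes that the rule did not use and that set the members apart from Ly6C-high monocytes in every library are printed here. The windows run from 250 bases before to 50 after the start of the gene, are from RefSeq on GRCm38.p6, and are written 5′ to 3′ on the strand of the gene. The capitals mark AGGAAG or its reverse complement CTTCCT, a purine-rich core of the kind that ETS factors such as PU.1, the master regulator of myeloid cells, bind. Cd300e, an activating myeloid receptor, has its window at chr11:115061990-115062289 on the minus strand. That of Adgre4, an adhesion receptor of the F4/80 family, is at chr17:55749734-55750033 on the plus strand, and that of Spn at chr7:127137774-127138073 on the minus strand.
Cd300e: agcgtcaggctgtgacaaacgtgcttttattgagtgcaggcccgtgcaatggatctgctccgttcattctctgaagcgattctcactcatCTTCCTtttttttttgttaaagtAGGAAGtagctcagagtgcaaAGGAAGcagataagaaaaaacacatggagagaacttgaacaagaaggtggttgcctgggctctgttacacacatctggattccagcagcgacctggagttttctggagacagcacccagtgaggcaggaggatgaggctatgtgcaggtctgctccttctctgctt
Adgre4: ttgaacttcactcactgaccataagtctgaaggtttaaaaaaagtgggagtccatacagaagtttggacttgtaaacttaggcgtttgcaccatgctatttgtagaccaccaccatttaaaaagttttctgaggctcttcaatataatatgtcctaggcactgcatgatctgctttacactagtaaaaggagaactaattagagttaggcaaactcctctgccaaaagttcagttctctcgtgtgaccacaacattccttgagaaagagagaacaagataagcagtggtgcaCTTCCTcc
Spn: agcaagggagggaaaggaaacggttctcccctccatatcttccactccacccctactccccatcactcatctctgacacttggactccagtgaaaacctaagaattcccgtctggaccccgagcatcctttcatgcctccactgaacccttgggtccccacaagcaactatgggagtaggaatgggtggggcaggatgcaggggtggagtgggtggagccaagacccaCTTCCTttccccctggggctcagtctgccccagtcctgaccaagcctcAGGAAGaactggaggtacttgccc
The Cd300e window held 3 matches, at 160, 137 and 116 bases before its RefSeq start. The GENCODE coordinates of Cd300e given below begin upstream of that start, so the matches at 137 and 116 lie within the gene as annotated there. The Spn window held 2 and the Adgre4 window 1. Of the 17 patrolling monocyte genes that were higher in members than in Ly6C-high monocytes, 12 had a window, and 6 of their 13 windows held the letters. Over all 32851 windows 35.4% did, so a match is common and describes the sequence only.

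The members numbered 69 in PBS, 22 in 3-day WGP and 43 with 7-day WGP. Their UMIs summed to 634382, 169084 and 300272, so 3-day WGP was the shallowest of the sums. The median member had 6621, 7208.5 and 5994 UMIs, and 2234, 2467.5 and 2193 genes. Mitochondrial UMIs were a median of 3.06%, 3.57% and 2.80%. The whole libraries were of like size, 48219246 to 56849043 UMIs, and 4174 to 5249 barcodes each were kept. Between libraries 1 to 9 kept barcodes were shared, and no barcode of a member was kept in another library.

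The sex-linked transcripts of the members went with the library. Of members with Xist or a Y-linked transcript, all 64 in PBS had Xist alone, 16 of 18 in 3-day WGP had Y-linked transcripts alone, and 28 of 30 with 7-day WGP had Xist alone. The sex of the cells and the treatment therefore cannot be told apart between PBS and 3-day WGP in these members. Over all kept barcodes with transcripts of 1 of the 2 kinds, that kind was Xist in 54.0%, 16.0% and 39.3%. In the Ly6C-high monocytes defined below it was Xist in 94.9%, 11.6% and 50.2%. In the C1q-positive macrophages defined below it was Xist in 99.1%, 26.2% and 65.5%. With 7-day WGP it was Xist in 96.6% of such members, so sex differed there between the populations compared. Its part in their differences was not tested.

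The rule was met in steps. Barcodes with 2 or more markers numbered 143, 97 and 163, and with Csf1r 124, 71 and 142. The limit on Ly6c2 then removed 46, 30 and 84, the absence of Arg1 removed 1, 12 and 4, the limit on chemokine transcripts 3, 2 and 10, and the lymphoid genes 5, 5 and 1. The Arg1 step thus took most from the 3-day library. Ear2, a ribonuclease of the eosinophil-associated family whose copies are near-identical so that its count is uncertain, was found in 58, 17 and 36 members. Ace, the angiotensin-converting enzyme, was found in 53, 14 and 32, Treml4, a receptor of the TREM family, in 49, 19 and 37, and Eno3, a glycolytic enolase, in 52, 15 and 29. The 4 markers summed to a median of 9, 6 and 10 UMIs in a cell.

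Just inside the limits, 26, 9 and 15 members had exactly 2 markers, and 15, 6 and 6 had 1 UMI of Ly6c2. Just outside, 160, 77 and 38 barcodes had 1 marker only, and 42, 19 and 37 had 2 or more markers but 2 or more UMIs of Ly6c2. The 9 further genes of the cell type that the rule did not use were Nr4a1, Cx3cr1, Spn, Cd300e, Fcgr4, Pou2f2, Adgre4, Gngt2 and Ceacam1. Members with exactly 2 markers had a median of 3.5, 6 and 4 of them, barcodes with 1 marker 3, 4 and 3.5, and barcodes that Ly6c2 alone kept out 6, 6 and 6. The Ly6c2 limit therefore runs through cells that carry much of the same gene set.

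The label held for members with 3 or 4 markers and only in part for those with 2. Of the 84 members with 3 or 4 markers, 79 had 5 or more of the 9 further genes, 76 had Itgal, and 1 had 5 or more UMIs of C1qa, C1qb and C1qc together. C1q is the complement component that tissue macrophages make. Of the 50 members with 2 markers, 23 had 5 or more of the further genes, 32 had Itgal and 18 had 5 or more C1q UMIs. By library 8 of 26, 8 of 9 and 7 of 15 of them had 5 or more of the further genes. In Ly6C-high monocytes 15 of 67, 64 of 138 and 107 of 347 did. Itgal was found in 15, 9 and 8 of the members with 2 markers, and in 35, 91 and 211 of those monocytes. Among the 50 members with 2 markers, 12 also had 2 or more UMIs of dendritic cell markers. In the same 50, 26 had 100 or more UMIs of MHC class II genes and 5 had 5 or more UMIs of cell cycle genes. The same counts in the 84 members were 0, 6 and 0. Cells with 2 markers were also deeper, with a median of 10679.5 UMIs against 5876.

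Of the 18 members with 2 markers and 5 or more C1q UMIs, 11 were in PBS, 1 in 3-day WGP and 6 with 7-day WGP. S100a8 and S100a9, which neutrophils hold in abundance, summed to 10 or more UMIs in 3 members with 2 markers, 3 with 3 markers and 3 with all 4. Values that touch either set are therefore also given for members with 3 or 4 markers. With all 4 markers, 31, 8 and 20 members remained. They had a median of 8, 7.5 and 8 further genes, where Ly6C-high monocytes of the same libraries had 4 and C1q-positive macrophages 3. After thinning to 1000 UMIs a cell the medians were 4, 5 and 4.5 against 1 in both other populations. Members with 2 markers then also had a median of 1 in each library, so at equal depth this median did not set them apart.

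**Figure D1:**
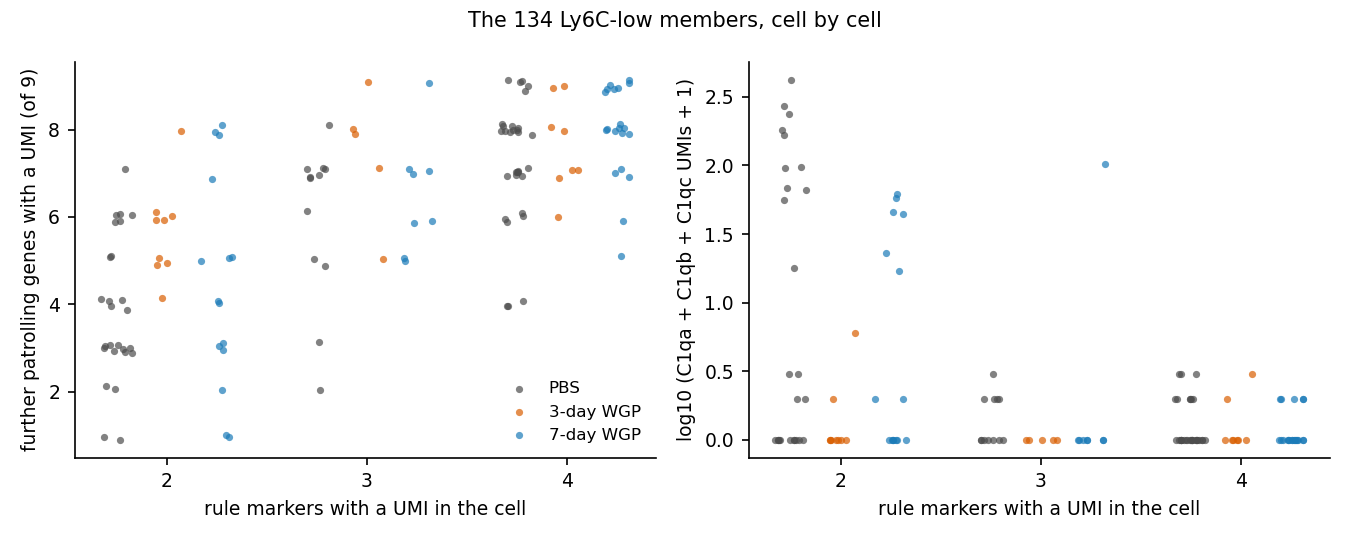
Each point is 1 of the 134 members, by library (grey PBS, orange 3-day WGP, blue 7-day WGP), with the number of rule markers in the cell on the x axis and a small random offset. The y axis is the number of further patrolling monocyte genes with a UMI (left) and the summed UMIs of C1qa, C1qb and C1qc as log10 of UMIs + 1 (right). Cells with 2 markers spread from 1 to 8 further genes and hold 18 of the 19 members with 5 or more C1q UMIs.

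Members were a smaller share of the 3-day library than of the others. They were 1.31% of kept barcodes in PBS (95% interval 1.02 to 1.66), 0.451% in 3-day WGP (0.283 to 0.682) and 1.03% with 7-day WGP (0.747 to 1.39). The intervals of PBS and 7-day WGP overlapped, and that of 3-day WGP lay below both. In stricter sets the 3-day interval lay below that of PBS but overlapped that of 7-day WGP. With 3 or 4 markers they were 0.593 to 1.10, 0.142 to 0.455 and 0.446 to 0.968. With all 4 they were 0.402 to 0.837, 0.0708 to 0.323 and 0.293 to 0.739. After thinning they were 0.324 to 0.725, 0.0451 to 0.267 and 0.183 to 0.562. Against the 1118, 979 and 1711 barcodes with Csf1r, members were 6.17% in PBS (4.83 to 7.75), 2.25% in 3-day WGP (1.41 to 3.38) and 2.51% with 7-day WGP (1.82 to 3.37), so on that base 7-day WGP was also below PBS. The rule bounds these shares through Arg1 and the chemokine genes, and fewer cells and less RNA of the markers in each cell cannot be told apart.

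The balance of the Ly6C-low and Ly6C-high forms differed most. Ly6C-high monocytes were barcodes with 2 or more UMIs of Ly6c2 that met every other limit and had 0 or 1 marker, and they numbered 67, 138 and 347. Members were 50.7% of both populations together in PBS (42.0 to 59.4), 13.75% in 3-day WGP (8.82 to 20.1) and 11.03% with 7-day WGP (8.10 to 14.6). With 3 or 4 markers required they were 39.1%, 8.61% and 7.47%. The number of members fell short of PBS in both WGP libraries, and the number of Ly6C-high monocytes exceeded it in both. The balance also differed with the sex of the cells in 7-day WGP. Among cells with Xist alone there were 64, 2 and 28 members and 56, 11 and 142 Ly6C-high monocytes. Among cells with Y-linked transcripts alone there were 0, 16 and 1 members and 3, 84 and 141 Ly6C-high monocytes. The part of sex in the balance was not tested. Because 1 library stands for each group, the spread between mice is not known.

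**Figure D2:**
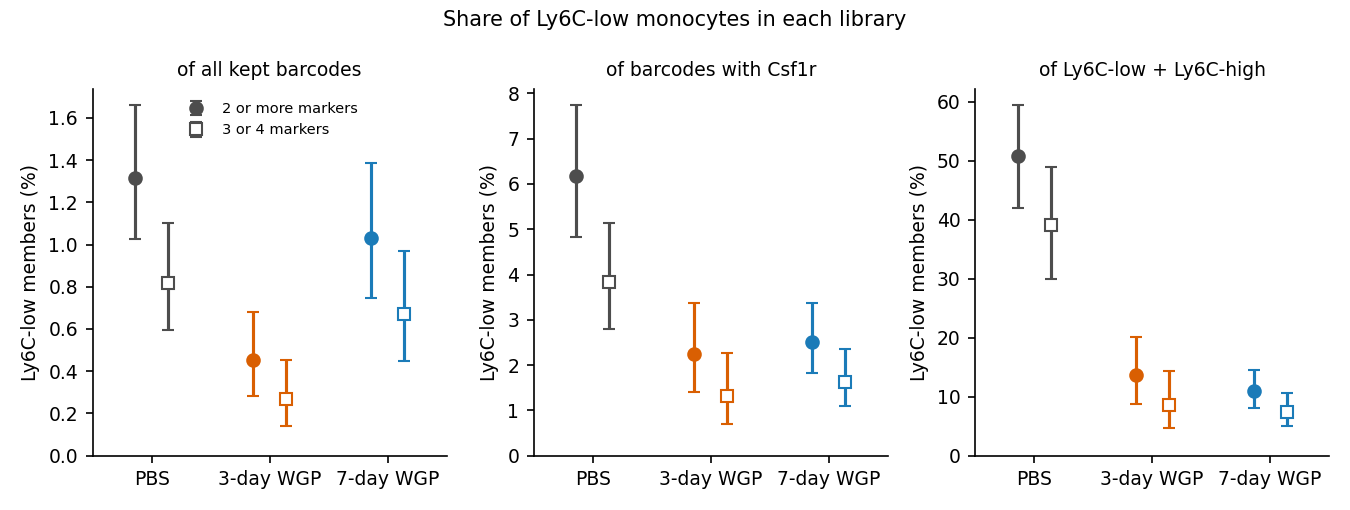
Members as a percent of kept barcodes (left), of barcodes with Csf1r (middle) and of both monocyte populations (right) in each library, with filled circles for 2 or more markers, open squares for 3 or 4, and bars for exact binomial 95% intervals of counting error. In the right panel PBS stands at 50.7% and the WGP libraries at 13.75% and 11.03%.

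To describe what set the members apart from the nearest populations, the UMIs of each population were summed per library and compared over the 3 libraries with edgeR, with library as a block. The other genes were measured in the same cells that the rule chose, so the calls describe how the gates differ and not an independent trait. Against Ly6C-high monocytes 194 of 6691 genes were higher in members, 2.9% of those tested, and 110 were lower, 1.64%, at an adjusted p of at most 0.05. Without 3-day WGP the counts were 56 and 34, and without 7-day WGP 46 and 19. Of the 32 patrolling monocyte genes tested 17 were higher and 0 lower, with a median log2 fold of 1.38 where the median over all genes was -0.02. Of 19 classical monocyte genes 0 were higher and 16 lower, with a median of -1.24. At an unadjusted p under 0.05 the counts were 26 and 0 for the patrolling list and 0 and 19 for the classical list, and by DESeq2 17 and 0, and 0 and 14.

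Surface molecules of patrolling cells were among the genes that were higher. Cd300e (chr11:115051917-115062177) stood at 82.0 CPM in PBS, 177 in 3-day WGP and 186 with 7-day WGP in members, and Ly6C-high monocytes held 1, 0 and 1 UMIs of it (edgeR adjusted p = 6.7e-05). Those few UMIs leave its fitted fold without a firm base. Itgal (chr7:127296260-127335138) was at 536, 745 and 603 CPM against 95.8, 125 and 120, a log2 fold of 2.36 (adjusted p = 0.00015). The groups did not overlap for either gene.

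Spn (chr7:127132232-127137823) was at 205, 278 and 373 CPM in members and 50.3, 31.0 and 31.8 in Ly6C-high monocytes, a log2 fold of 2.85 (edgeR adjusted p = 0.00089). Adgre4 was at 251, 426 and 366 CPM against 26.3, 68.8 and 58.5, a log2 fold of 2.70 (adjusted p = 0.00026). Each library thus held several times more of both in members, which are the genes whose promoters are printed above with that of Cd300e. S1pr5, a receptor for the lipid that guides exit of cells into the blood, was at 55.2, 59.1 and 83.3 CPM against 1.20, 4.72 and 1.11 (adjusted p = 0.0013). Cd36, a scavenger receptor for lipids, and Fabp4, a carrier of fatty acids, were also higher, with log2 folds of 3.1 and 5.09. Pparg, the nuclear receptor of lipid handling, was higher by a log2 fold of 3.80.

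Of 22 genes for adhesion and chemoattractant receptors 7 were higher and 2 lower. The 7 were Itgal, Spn, S1pr5, Itgax, Cxcr4, Itgb1 and Itga4, of which the first 2 and the last are also patrolling monocyte genes. Cxcr4, the chemokine receptor that holds cells in the bone marrow, was at 137, 680 and 290 CPM against 71.8, 122 and 78.6, a log2 fold of 1.71 (edgeR adjusted p = 0.0098). The lower genes included Ccr2, the receptor by which monocytes leave the marrow. Ccr2 was at 668, 787 and 526 CPM in members against 1190, 1599 and 1406, a log2 fold of -1.18 (adjusted p = 0.0064). In members with 3 or 4 markers it was at 376, 94.9 and 85.8 CPM, so much of the Ccr2 in members lay in the cells with 2 markers.

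Of 21 transcription factors tested 5 were higher and 0 lower, namely Hes1, Nr4a1, Pparg, Tcf7l2 and Pou2f2. The other 16 did not pass the test. Nr4a1 (chr15:101254269-101274795) was at 501, 1177 and 796 CPM in members against 75.4, 319 and 245 in Ly6C-high monocytes, a log2 fold of 1.97 (edgeR adjusted p = 0.0016). It is also an immediate early gene, and of 15 immediate early and heat shock genes 0 were called by edgeR or DESeq2, with 2 higher and 2 lower at an unadjusted p under 0.05. Hes1, a target of Notch signals, was at 107, 195 and 130 CPM against 7.18, 5.77 and 5.01 (adjusted p = 0.00015). Cebpb did not pass the test, with 1527, 3206 and 2221 CPM against 951, 2029 and 2041 (adjusted p = 0.21). Cx3cr1 did not pass either, at 268, 219 and 273 CPM against 239, 133 and 78.3 (adjusted p = 0.16), nor did Fcgr4, an activating IgG receptor of this cell type, at 107, 384 and 363 against 69.4, 141 and 306 (adjusted p = 0.17).

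Of 9 survival genes tested 4 were higher and 0 lower. They were Bcl2, the founding inhibitor of cell death, and its relatives Bcl2a1a, Bcl2a1b and Bcl2a1d, whose near-identical copies share reads so that their split is uncertain. Bcl2 was at 77.2, 29.6 and 66.6 CPM against 21.5, 5.77 and 9.19, a log2 fold of 2.24 (edgeR adjusted p = 0.0074). The rest of the 10 named by size were Slc12a2, an ion cotransporter, at a log2 fold of 6.21, Slc40a1, the iron exporter ferroportin, at 5.0, Dusp16, a MAP kinase phosphatase, at 3.39, Ltb, the cytokine lymphotoxin beta, at 3.38, and Havcr2, the receptor TIM-3, at 3.18. Ly6C-high monocytes held 0, 4 and 5 UMIs of Slc12a2, so its fold is also uncertain.

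Most classical monocyte genes, and 6 of 27 interferon-stimulated genes, were lower. Lyz2, lysozyme, was at 13672, 10912 and 11363 CPM in members against 25993, 25866 and 27054, a log2 fold of -1.24 (edgeR adjusted p = 0.00044). The 3 libraries were tight in both populations and did not overlap. Of the interferon-stimulated genes 0 were higher, the 6 lower were Bst2, Irf7, Ifi211, Gbp4, Ifi47 and Ly6a, and the median log2 fold was -0.89. Bst2, which tethers viruses to the cell, was at 184, 106 and 113 CPM against 412, 282 and 399, a log2 fold of -1.53 (adjusted p = 0.0041). Of 16 inflammatory genes 0 were higher and 2 lower, the chemokine genes Cxcl10 and Ccl2. Of 7 MHC class II genes edgeR called 0, DESeq2 called 1 lower, and 1 was lower at an unadjusted p under 0.05. Of 9 glucan sensing genes 0 were called by either tool, with 3 higher at an unadjusted p under 0.05. Clec7a, the gene of the WGP receptor Dectin-1, was not among the features counted, so this list does not cover the receptor.

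The 10 lowest of the called genes included Prtn3, Lcn2 and Cd177, which neutrophils and their precursors hold in granules or on the surface. Prtn3 was at 1.58, 23.7 and 3.33 CPM in members against 502, 486 and 80.0, a log2 fold of -6.04 (edgeR adjusted p = 0.00043). The 8 neutrophil markers summed to 14007, 6964 and 202 CPM in Ly6C-high monocytes and to 333, 4524 and 2484 in members. Their part in these calls was not tested. The other 7 were Cd7, Cxcl10, Vcan, Gbp4, Dut, Ccl2 and Ly6a, with log2 folds from -4.59 to -1.92. Cxcl10, a chemokine induced by interferon, and Gbp4, a guanylate-binding protein, stood highest in 7-day WGP in both populations. When barcodes with 10 or more UMIs of S100a8 and S100a9 were left out of both populations, 236 genes were higher and 167 lower.

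**Figure D3:**
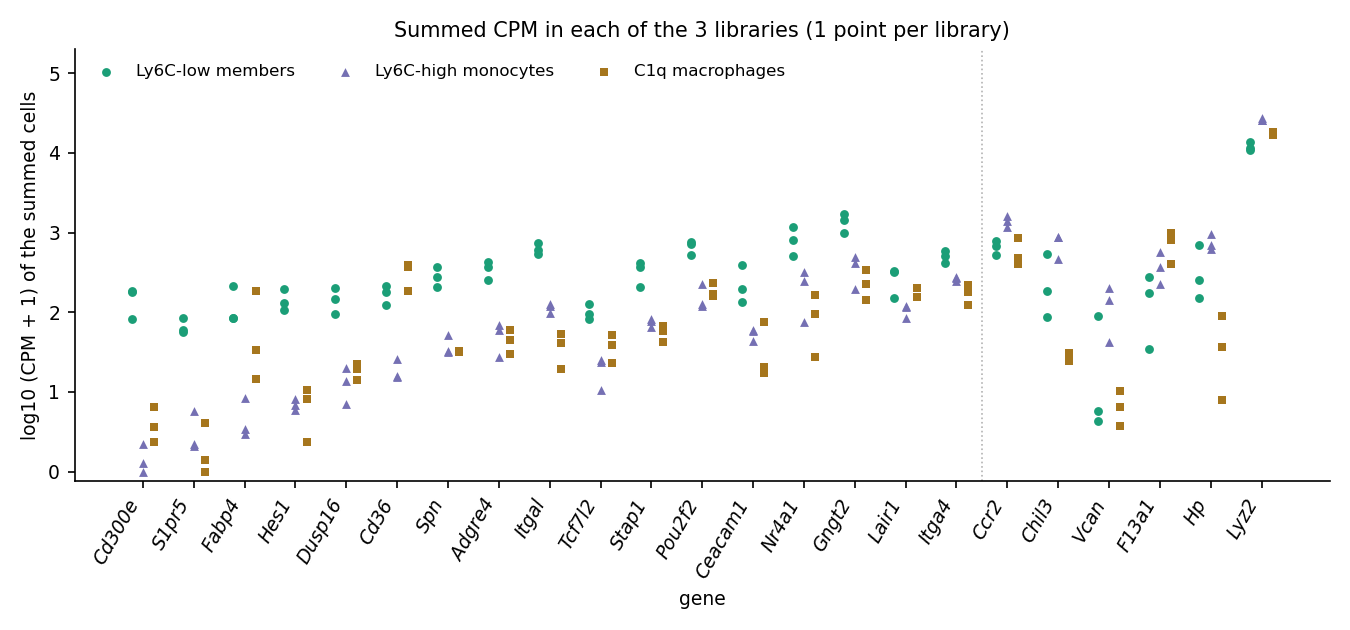
Each point is the summed CPM of 1 library, as log10 of CPM + 1, in members (green circles), Ly6C-high monocytes (violet triangles) and C1q-positive macrophages (brown squares). Left of the dotted line are 17 genes higher in members than in Ly6C-high monocytes, such as Cd300e at 82.0 to 186 CPM, and right of it 6 classical monocyte genes, such as Lyz2, which is lowest in members in each library.

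Against C1q-positive macrophages the members differed at more genes. These macrophages had 0 or 1 marker, fewer than 2 UMIs of Ly6c2 and 5 or more C1q UMIs, and numbered 673, 199 and 82. In members 486 of 6875 genes were higher, 7.07%, and 488 were lower, 7.1%, by the same edgeR test. Without the PBS library the counts were 244 and 278. Of 31 patrolling monocyte genes tested 23 were higher and 0 lower, with a median log2 fold of 1.51. Of 17 tissue macrophage genes outside the rule 0 were higher and 17 lower, with a median of -2.63 against -0.02 over all genes. Of 15 immediate early and heat shock genes 6 were higher, Dusp1, Zfp36, Hspa1b, Atf3, Ier2 and Junb, and 0 lower. By DESeq2 2 were higher. Nr4a1 was among the 23 patrolling genes, and the part of this response in its call was not tested.

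Itgal was at 18.3, 53.2 and 40.6 CPM in the macrophages, so that members were higher by a log2 fold of 4.16 (edgeR adjusted p = 7e-05). Pglyrp1, a peptidoglycan-binding protein of granules, was at 166, 473 and 306 CPM in members against 0.962, 0.443 and 2.71 (adjusted p = 2.1e-05). The gene is shared with neutrophils, of whose 8 markers 4 could be tested and 3 were higher, S100a8, S100a9 and Csf3r. Plac8, which classical monocytes carry, was among 9 of 17 classical monocyte genes that were higher in members than in macrophages, and 3 were lower. Genes named for either monocyte form were thus among those higher in members. The others of the 10 named by size were 4833407H14Rik, S1pr5, Cd300e, G0s2, Gm9733, Trem3, Ltb, S100a9 and Gm19951, with log2 folds from 4.47 to 7.06.

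The lower genes included those of resident macrophages. Ccl8, a chemokine, was at 3.15, 5.91 and 0 CPM in members against 151, 944 and 739 (edgeR adjusted p = 7e-05). Cd163, the scavenger of hemoglobin, was at 28.4, 0 and 9.99 CPM against 265, 198 and 70.3 (adjusted p = 0.00098). The receptor gene Marco and the genes Pf4, Pmepa1, Cbr2, Folr2, Ms4a7, Gas6 and Igfbp4 made up the rest of the 10, with log2 folds from -4.90 to -3.44. Of 11 genes for Fc and scavenger receptors 0 were higher and 6 lower, among them Fcgr1 and Fcgr3, which bind IgG. By DESeq2 15 of the 17 tissue macrophage genes and 6 of the 11 receptor genes were lower and 0 higher. Of 11 acinar enzyme genes 11 were lower, and these digestive enzymes abound in the free RNA of the libraries. By DESeq2 6 were lower. Of 9 glucan sensing genes, Clec7a not among them, 4 were higher and 0 lower. The 4 were the signalling genes Malt1, Plcg2 and Lyn and the integrin chain Itgb2, which pairs with Itgal.

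Shares of members with a UMI were taken after each cell was thinned to 1000 UMIs. Itgal was found in 46.4% of members in PBS (34.3 to 58.8), 11 of 22 members, or 50%, in 3-day WGP (28.2 to 71.8) and 44.2% with 7-day WGP (29.1 to 60.1). In B cells of the same libraries, at median depths of 5066, 8959 and 5705 UMIs, it was found in 3.62%, 5.44% and 5.01%, and B cells themselves make LFA-1. The intervals of the libraries overlapped throughout. Nr4a1 was found in 39.1% (27.6 to 51.6), 68.2% (45.1 to 86.1) and 48.8% (33.3 to 64.5) of members, against 8.58%, 5.51% and 5.33% of B cells. Unthinned, Itgal was found in 79.7%, 90.9% and 76.7% of members and Nr4a1 in 76.8%, 95.5% and 86.0%. C1qa was found in 11.6%, 4.55% and 6.98% of thinned members, and in 0 of 43 in PBS once 3 or 4 markers were required.

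Between libraries each gene was compared as a log2 ratio of CPM after 20 CPM were added to both, which understates the change of low genes, and a ratio of 2-fold or more was counted without a test. Only genes with 20 or more UMIs over the 2 sums were counted. Both ratios share the PBS library. In 3-day WGP 231 of 5207 genes were 2-fold or more higher than in PBS, 4.44%, and 305 were lower, 5.86%. In 7-day WGP 91 of 5637 were higher, 1.61%, and 119 lower, 2.11%. With 3 or 4 markers required, 143 were higher and 164 lower of 2903 in 3-day WGP, and 75 and 67 of 3307 with 7-day WGP.

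Some genes of the patrolling state stood higher after WGP, fewer so in members with 3 or 4 markers. The 33 list genes also summed higher after WGP outside the members. Their sums were 11786, 20688 and 16938 CPM in members and 6545, 9236 and 9397 in Ly6C-high monocytes. In the free RNA, that of barcodes with at most 100 UMIs, they were 2808, 4411 and 4661. The shared part of the members' ratios was not tested. Of 31 counted in members, 7 were higher and 0 lower in 3-day WGP, with a median log2 ratio of 0.62. In 7-day WGP 5 were higher and 0 lower, with 0.51, where all genes had medians of -0.01. In members with 3 or 4 markers 2 of 31 were higher in each library, where 4.93% and 2.27% of all genes were, and the medians were 0.18 and 0.28. Fcgr4 (chr1:171018920-171029761) was at 107 CPM in PBS (83.2 to 136), 384 in 3-day WGP (297 to 490) and 363 with 7-day WGP (298 to 438). Its log2 ratios were 1.67 and 1.59, and 1.26 and 1.29 in members with 3 or 4 markers. PBS stood apart from both WGP libraries, which overlapped, and the UMIs were spread over 26, 16 and 29 cells. Fcgr4 was at 69.4, 141 and 306 CPM in Ly6C-high monocytes and at 73.3, 229 and 371 in C1q-positive macrophages.

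Klf2, a factor induced by blood flow that keeps monocytes quiescent, was at 695 CPM in PBS (632 to 763), 2011 in 3-day WGP (1803 to 2236) and 1582 with 7-day WGP (1443 to 1731). Its log2 ratios were 1.51 and 1.16, and 0.75 and 1.07 with 3 or 4 markers. Nr4a1 was at 501 CPM in PBS (448 to 560), 1177 in 3-day WGP (1019 to 1352) and 796 with 7-day WGP (698 to 904), and all 3 intervals were apart. In members with all 4 markers its log2 ratios were 0.30 and 0.48. Immediate early and heat shock genes stood higher too, 6 of 15 in 3-day WGP (Ier3, Dusp1, Fos, Zfp36, Atf3 and Junb) and 2 with 7-day WGP (Dusp1 and Ier3), with 0 lower, and 3 in each with 3 or 4 markers. Their part in the Nr4a1 and inflammatory ratios was not tested. By contrast Itgal, Spn and Cx3cr1 did not reach 2-fold in either library, with log2 ratios from -0.27 to 0.81. Cd300e had ratios of 0.95 and 1.02. In Ly6C-high monocytes Klf2 was at 494, 1008 and 1247 CPM and Nr4a1 at 75.4, 319 and 245. In C1q-positive macrophages Klf2 was at 489, 1040 and 978 CPM and Nr4a1 at 26.3, 93.0 and 164.

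Inflammatory genes stood far higher in 3-day WGP, and not in members alone. The 19 list genes summed to 2331, 13408 and 5458 CPM in members and to 2361, 6940 and 7627 in Ly6C-high monocytes. In the free RNA they summed to 1247, 8300 and 9292 CPM, and its part in the members' ratios was not tested. Of 15 counted in members 12 were 2-fold or more higher and 1 lower, with a median log2 ratio of 2.34. In 7-day WGP 6 of 16 were higher and 2 lower, with 0.55. With 3 or 4 markers the medians were 2.13 and 0.60. With all 4 markers, a set chosen after the data were seen, they were -0.34 over 8 cells in 3-day WGP and 1.94 over 20 cells in 7-day WGP. Over 8 cells the 3-day median is uncertain, and it does not settle which members held the 3-day level. In 7-day WGP the median stayed above 0 with all 4 markers.

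Il1b (chr2:129364570-129371139), the cytokine interleukin-1 beta, was at 462 CPM in PBS (410 to 518), 2425 in 3-day WGP (2196 to 2671) and 1655 with 7-day WGP (1513 to 1807), in 43, 15 and 28 cells. With all 4 markers it was at 399, 477 and 1590 CPM. Cxcl2, a chemokine for neutrophils, was at 101 CPM in PBS (77.7 to 129), 3501 in 3-day WGP (3225 to 3795) and 147 with 7-day WGP (106 to 197). Only 9 of 22 members in 3-day WGP held it and 1 cell gave 38.5% of its UMIs, so a few cells made this level. Tnfaip2 (chr12:111442469-111455018), a gene induced by TNF, was at 61.5 CPM in PBS (43.7 to 84.0), 556 in 3-day WGP (449 to 680) and 503 with 7-day WGP (426 to 590). With all 4 markers it was at 73.5, 62.2 and 554 CPM, so in 7-day WGP it was as high in the strictest set as in the whole. In Ly6C-high monocytes Il1b was at 158, 1471 and 1640 CPM, Cxcl2 at 132, 665 and 448, and Tnfaip2 at 108, 224 and 380.

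Of the 10 genes named for the highest ratios in 3-day WGP, 4 are in the inflammatory list, namely Saa3, an acute phase protein, Il1rn, the antagonist of interleukin-1, Tnfaip2 and Il1b. The rest were Clec4e, the receptor Mincle for fungal and mycobacterial glycolipids, Mxd1, an antagonist of Myc, S100a8, Marcksl1, Ccrl2, a chemokine-binding receptor, and F10. Clec4e was at 33.1 CPM in PBS (20.5 to 50.6), 781 in 3-day WGP (653 to 926) and 350 with 7-day WGP (286 to 423). Its log2 ratios were 3.91 and 2.80, and stayed at 2.41 and 1.5 in members with all 4 markers. Saa3 had 1, 49 and 67 UMIs, of which 1 cell held 75.5% and 79.1% in the WGP libraries, so its level was that of single cells. Of these 10 genes 9 were also past 2-fold with 3 or 4 markers, 3 with all 4, where 5 lay in the other direction, and 10 without cells of 10 or more S100a8 and S100a9 UMIs.

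In 7-day WGP the 10 were Saa3, Slpi, Clec4e, Tnfaip2, Mxd1, AW112010, Gbp2, Il1b, Irf1 and Sod2. Slpi, a secreted inhibitor of leukocyte proteases, was at 9.46 CPM in PBS (3.47 to 20.6), 526 in 3-day WGP (423 to 648) and 306 with 7-day WGP (247 to 376). It was found in 4, 8 and 10 cells, and 1 cell held 46.7% of the 7-day UMIs. Irf1, a factor of the interferon response, was at 67.8 CPM in PBS (49.1 to 91.3), 142 in 3-day WGP (90.9 to 211) and 283 with 7-day WGP (226 to 350). It was spread over 22, 9 and 26 cells, with no cell above 25.6% of a library's UMIs. Of the 10 genes 7 were past 2-fold with 3 or 4 markers and 7 with all 4, where AW112010, an interferon-responsive transcript with 47.1% of its 7-day UMIs in 1 cell, lay in the other direction at -0.66.

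The 8 neutrophil markers moved with these genes. They summed to 333 CPM in PBS, 4524 in 3-day WGP and 2484 with 7-day WGP in members, and 675.9, 2847 and 4859 with 3 or 4 markers. Of 6 counted in 3-day WGP 6 were 2-fold or more higher, and of 5 with 7-day WGP 3 were. In PBS and 3-day WGP 1 of the 8 was at 0 and in 7-day WGP 2 were. S100a8 was held by 1, 10 and 3 members. Without the members of 10 or more S100a8 and S100a9 UMIs, 68, 17 and 40 remained, and the median log2 ratio of the inflammatory genes in 3-day WGP was 1.19. Their part in the remaining difference was not tested.

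Interferon-stimulated genes stood higher over all members and less so in the stricter sets. Of 19 counted in 3-day WGP 8 were higher and 0 lower with a median log2 ratio of 0.88, and of 20 with 7-day WGP 5 and 0 with 0.37, and with 3 or 4 markers 3 of 13 and 3 of 12 were higher and the medians were 0.31 and -0.09. With all 4 markers they were -0.65 and -0.15. Gbp2, a guanylate-binding protein, was at 50.4 CPM in PBS (34.5 to 71.2), 201 in 3-day WGP (139 to 281) and 246 with 7-day WGP (194 to 309). The WGP libraries overlapped and both lay above PBS. Its log2 ratios were 1.65 and 1.92, 0.64 and 1.42 with 3 or 4 markers, and -0.19 and 0.74 with all 4. H2-Q7, of the class I family whose copies share reads, was the one of 12 class I genes past 2-fold in either library, with ratios of 1.01 and 1.64.

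A few chemoattractant receptors stood above 2-fold. Of 19 counted, 4 were higher in 3-day WGP, among them Fpr2, Cxcr4 and C5ar1, and 2 with 7-day WGP, among them Fpr2, and 0 were lower. With 3 or 4 markers 2 were higher and 1 lower of 15 counted in 3-day WGP and of 16 with 7-day WGP. Over all genes in those sets 4.93% and 2.27% were higher, and 5.65% and 2.03% were lower. The 3-day log2 ratio of C5ar1, the complement C5a receptor, was 1.64, and it was 2.48 with 3 or 4 markers, 0.37 without cells of 10 or more S100a8 and S100a9 UMIs and -0.18 with all 4 markers, so it depended on the cells kept. Cxcr4 was at 137 CPM in PBS (110 to 169), 680 in 3-day WGP (562 to 816) and 290 with 7-day WGP (232 to 357), and its 3-day ratio was 1.99 with 3 or 4 markers and 1.55 with 4. No interval overlapped another. Fpr2, a formyl peptide receptor, was at 14.2 CPM in PBS (6.49 to 26.9), 225 in 3-day WGP (159 to 308) and 113 with 7-day WGP (78.4 to 158). Of 8 glucan sensing genes counted, Clec7a not among them, 0 were past 2-fold in either library. Of 9 survival genes 1 was higher in 3-day WGP, where 4.44% of all genes were, namely Cflar, an inhibitor of death-receptor signals. With 3 or 4 markers 0 of 9 survival genes were higher and 2 were lower in 3-day WGP, where 5.65% of all genes were lower.

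Classical monocyte genes depended on which members were counted. Over all members 7 of 17 were higher and 0 lower in 3-day WGP, with a median log2 ratio of 0.55, and 2 and 1 with 7-day WGP, with 0.15. Requiring 3 or 4 markers, the medians were -0.66 and -0.51, on the other side of 0. Chil3, a chitinase-like secreted protein, was at 186, 538 and 86.6 CPM over all members and at 333, 23.7 and 158 with 3 or 4 markers. The 3-day members thus held Chil3 mainly in cells with 2 markers.

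Macrophage genes stood far lower after WGP over all members, and less so in members with 3 or 4 markers. Of 18 tissue macrophage genes counted in 3-day WGP 0 were higher and 14 lower, with a median log2 ratio of -2.21, or -2.10 with the 8 genes at 0 set to the limit of 3 UMIs. In 7-day WGP 0 of 19 were higher and 14 lower, with -1.91. With 3 or 4 markers, where 6 and 8 genes could be counted, the medians were -0.82 and -0.01. C1qa was at 905 CPM in PBS (832 to 982), 23.7 in 3-day WGP (6.45 to 60.6) and 226 with 7-day WGP (176 to 287). With 3 or 4 markers it was at 25.3, 35.6 and 291 CPM, and with all 4 at 21.0, 62.2 and 0. The 44 UMIs behind the 291 CPM all came from 1 cell with 3 markers. Apoe, the lipid carrier, was at 5929, 1544 and 1149 CPM, and 1 cell gave 60.7% of its PBS UMIs.

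The 10 genes named for the lowest ratios in 3-day WGP were Lyz1, C1qc, Pf4, C1qb, C1qa, Mrc1, Fcrls, Dab2, Mgl2 and Lpl. Of these, 7 had 0 UMIs in the 3-day members, where 3 UMIs would be 17.7 CPM. Lyz1, a lysozyme near-identical to Lyz2 so that its count is uncertain, was at least 72.0-fold lower, C1qc at least 39.5-fold and Lpl, lipoprotein lipase, at least 6.49-fold. Only 2 of the 10, Lyz1 and C1qb, stayed past 2-fold with 3 or 4 markers. The 10 of 7-day WGP were Pf4, Fcrls, Selenop, F13a1, Apoe, Dab2, C1qa, Mgl2, C3ar1 and Tmem176b, of which Tmem176b alone did so. It was at 596, 148 and 173 CPM over all members and at 361, 142 and 52.8 with 3 or 4 markers.

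Over all members MHC class II genes stood lower in 3-day WGP. Of 8 counted 0 were higher and 7 lower, with a median log2 ratio of -1.85, and in 7-day WGP 0 of 9 were past 2-fold, with -0.01. The medians were -0.89 and -0.54 with 3 or 4 markers and -0.29 and -1.66 with all 4, so the library with the lower median changed with the set. H2-Aa was at 4537 CPM in PBS (4372 to 4706), 1153 in 3-day WGP (997 to 1327) and 4513 with 7-day WGP (4275 to 4759). Among members with 3 or 4 markers it was at 1775, 1293 and 1248 CPM, and with all 4 at 1181, 1411 and 418. The 10 dendritic cell markers summed to 402, 11.8 and 233 CPM over all members and to 25.3, 0 and 0 with 3 or 4 markers, and their part in the MHC class II values was not tested. Cell cycle genes likewise summed to 928, 65.1 and 366 CPM over all members and to 101, 94.9 and 66.0 with 3 or 4 markers.

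Markers of T and NK cells and of stroma were near 0 in members, and the rule itself had left out barcodes with Cd3d, Cd3e or Cd79a. The 10 T and NK cell markers summed to 5.91 to 9.46 CPM, with 7 to 9 of them at 0. The 8 endothelial and fibroblast markers summed to 12.6, 0 and 0 CPM. In Ly6C-high monocytes the 9 eosinophil, basophil and mast cell markers summed to 5.99, 2.62 and 1.39 CPM. In members they summed to 0, 17.7 and 56.6 CPM, and to 0, 35.6 and 79.2 with 3 or 4 markers. The 8 B cell markers summed to 456, 302 and 186 CPM, where barcodes of at most 100 UMIs, which hold the free RNA of a library, held 46706, 79214 and 26515. Acinar enzymes were at 499.7, 101 and 117 CPM against 12754, 6827 and 13030 in the free RNA.

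**Figure D4:**
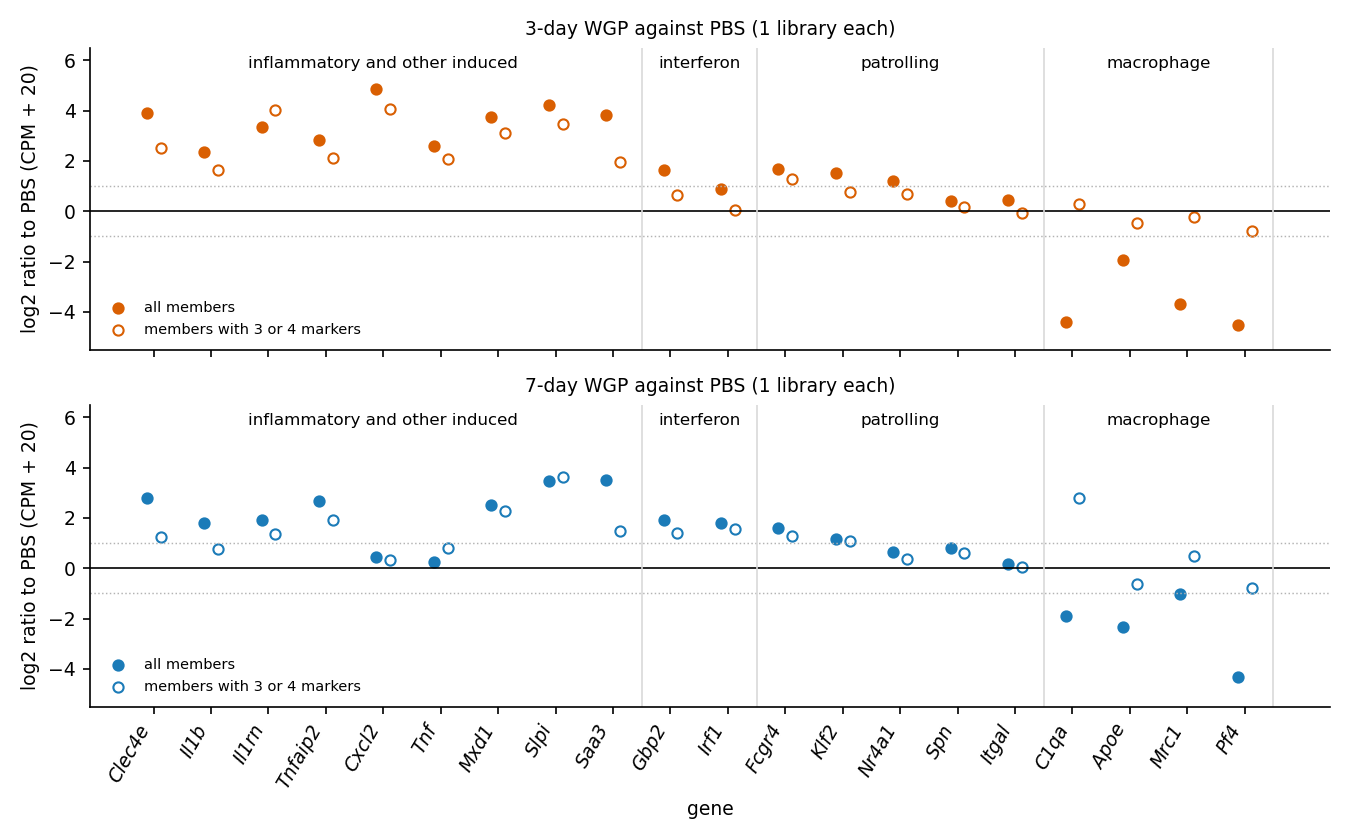
Log2 ratios of summed CPM + 20 in members of 3-day WGP (upper, orange) and 7-day WGP (lower, blue) against PBS, with 1 library each, for all members (filled) and those with 3 or 4 markers (open), and dotted lines at 2-fold. Il1b and Clec4e stay above 2-fold in both sets in 3-day WGP, while C1qa goes from -4.40 to 0.30 there once 3 or 4 markers are required.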

How the data were processed

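Live CD45+ cells of the pancreas were profiled in 3 libraries, PBS, 3-day WGP and 7-day WGP, which served as the groups. Per the labels the authors used Cell Ranger 3.1.0 and the mm10 genome, and the deposited UMI counts list every barcode, raw and not normalized. Their later filters on empty droplets, high counts, mitochondrial and ribosomal content, stated in the study's methods, were not applied to the deposited matrices. No column of values was left unused (0). The members and the gene lists were chosen with earlier results of these data known.

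Barcodes were selected as described above. UMIs were summed per library and population. Populations were compared with edgeR 4.0.16 (R 4.3.3), TMM scaling, its quasi-likelihood test with library as a block, and Benjamini-Hochberg adjustment over all genes tested, without the rule genes. Both populations of a library come from the same sorted cells, and the block takes the library into account. It does not take into account the sex of the cells, which differed between the populations of 7-day WGP. Between libraries only ratios and exact counting intervals were given. The scripts were tested on simulated data. DESeq2 1.42.0 was an alternative. Python 3.11.15 was used elsewhere. Doublets were scored with Scrublet in scanpy 1.11.5, which called 0, 1 and 1 barcodes and so had not worked, and the highest scores, 0.8% per 1000 barcodes, were left out as an alternative only.

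Genes were named by rule, namely the rule genes, called genes of the lists, and the 10 highest and lowest per comparison. For edgeR these were called genes of at least 50 CPM in the higher population that moved the same way in 3 libraries, and for ratios genes with at least 50 UMIs over both sums and a UMI in 10 members. Immunoglobulin, T cell receptor, hemoglobin, acinar, mitochondrial, ribosomal, Xist and Y-linked genes were not named so. Other genes printed are list members chosen for their known role after their values were seen. Of 31053 features 30934 were matched to a GENCODE gene for coordinates. A few list genes that count in these totals are not reported here by name.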

Additional observations from a re-analysis of the deposited data

How the results depend on the processing

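Requiring 3 markers, 4 markers (added after the data were seen) or thinning to 1000 UMIs gave shares of kept barcodes of 0.819%, 0.591% and 0.495% in PBS, 0.266%, 0.164% and 0.123% in 3-day WGP and 0.671%, 0.479% and 0.335% in 7-day WGP. The other 21 of 30 shares stayed within their intervals. Against Ly6C-high monocytes the genes higher and lower in members were 322 and 386 without a filter on low counts, 98 and 36 without the library block, 490 and 429 with 3 markers, 448 and 403 with 4 markers, and 167 lower without cells of 10 or more S100a8 and S100a9 UMIs. Leaving out 1 library gave 46 to 212 higher and 19 to 115 lower. Against macrophages they were 276 and 235 without the block, 303 and 291 with Ly6c2 at 0, 313 lower by DESeq2 and 876 lower without the filter, and 244 to 547 higher and 278 to 597 lower without 1 library. With 4 markers Icam1 (log2 fold -0.16) and Junb (-0.22) turned. Of 2073 values of called genes 356 were no longer called.

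Genes past 2-fold in 3-day WGP were 363 higher and 542 lower with 5 CPM added, 129 and 92 with 50 CPM, 133 and 120 with a minimum of 50 UMIs, 143 and 164 with 3 markers, 52 and 168 with 4 markers, 153 higher without the top cell of each gene and 179 lower without barcodes over 20000 UMIs. In 7-day WGP they were 181 and 279, 43 and 32, and 58 and 50 under the first 3 of these, and 74 lower without barcodes over 20000 UMIs, 67 with 3 markers and 70 with 4.

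Median log2 ratios of the patrolling list were 0.17 (3-day) and 0.29 (7-day) by the mean of per-cell CPM, 0.38 in 3-day without barcodes over 20000 UMIs, 0.18 and 0.28 with 3 markers, 0.21 and 0.27 with 4, and 0.75 in 7-day with Ly6c2 at 0. Those of the classical list were 0.12 by the mean of per-cell CPM and 0.26 without barcodes over 20000 UMIs in 3-day, -0.66 and -0.51 with 3 markers, and -0.61 and -0.65 with 4. Those of the macrophage list were -3.95 with 5 CPM added in 3-day, -0.82 and -0.010 with 3 markers, and -0.17 and -0.35 with 4. With 4 markers the inflammatory list gave -0.34 and 1.94, the interferon list -0.65 and -0.15 and the MHC class II list -0.29 and -1.66. With 3 markers MHC class II gave -0.54 in 7-day, and without S100a8 and S100a9 cells the inflammatory list gave 1.19 in 3-day.

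Ratios turned or went to 0 in C1qa (0.30 in 3-day, 2.78 in 7-day), Dab2 (0 in both) and Mgl2 (0.43 in 3-day) with 3 markers. With 4 they did so in C1qa (1.004), Ccrl2 (-1.50), Cebpb (-0.072), Dab2 (0), F10 (-1.62), Gbp2 (-0.19), H2-Aa (0.25), Marcksl1 (-0.61), Mgl2 (1.03), Mxd1 (-0.61), Prdx5 (-0.60) and Tnfaip2 (-0.19) in 3-day, and AW112010 (-0.66), Dab2 (0) and Mgl2 (0) in 7-day.

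Shares of members with a UMI were, unthinned, 79.7%, 90.9% and 76.7% for Itgal, 76.8%, 95.5% and 86.0% for Nr4a1 and 26.1% for C1qa in PBS. With 3 markers, also added after the data were seen, they were 65.1% (PBS) and 64.3% (7-day) for Itgal, 53.5% for Nr4a1 and 0% for C1qa in PBS. The cause of these shifts was not tested. Members with Xist alone in 3-day WGP were 2 and gave no ratios. No paired analysis was possible because each group has 1 library. With 22 to 69 members, genes of low count could not be compared.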
